A study of Homo sapiens with 33 samples.

Results

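The genes described here are 9 transcription factors known from the embryonic Mullerian and urogenital tract: PAX8, PAX2, SOX17, WT1, MECOM, EMX2, LHX1, MEIS1 and FOXJ1. They were listed by symbol, with earlier results of these data known, and are 9 of the 29744 genes listed for each library. All 9 were found. The questions asked of them were which high-grade serous ovarian carcinoma (HGSOC) lines expressed which factor, and whether a platinum-resistant line differed from the sensitive line of the same origin.

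The Mullerian duct is the embryonic tube from which the oviduct, the uterus and the upper vagina form. PAX2, PAX8, LHX1 and EMX2 are needed for the duct or for the nearby nephric duct to form, and WT1 acts in the gonad, the kidney and the mesothelium from which the duct invaginates. PAX8, SOX17, MECOM and WT1 are known as regulators that remain active in the secretory epithelium of the fallopian tube and in HGSOC, of which PAX8 and WT1 are also diagnostic stains. MEIS1 is a homeodomain partner of HOX and PBX proteins, and FOXJ1 is the factor that switches on the motile cilium program in ciliated cells, such as those of the tube.

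The 33 mRNA libraries came from 11 human HGSOC cell lines with 3 replicates each, in 4 families. OVCAR3 and OVCAR4 are established lines sensitive to platinum, and the study derived a pair of resistant lines from each (OVCAR3 ResA and ResB, OVCAR4 ResA and ResB) by repeated pulses of cisplatin at rising dose, each followed by recovery in fresh medium. These 4 lines were selected independently of each other and were not kept in cisplatin afterwards. PEA1 and PEA2 came from 1 patient, and PEO1, PEO4 and PEO6 from another, with PEA1 and PEO1 as the sensitive lines and PEA2, PEO4 and PEO6 as the resistant ones. The labels name the line and the replicate, and the roles come from the study's text. Every line is a single culture lineage, so its 3 libraries measure the spread within that line and not between independent resistant derivatives, and nothing in the labels says whether the replicates were separate cultures. The libraries held 18058985 to 43394009 estimated counts.

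The lines carried the epithelial markers that their label implies, with PEA1 as the exception. The summed level of 9 epithelial markers was lowest in PEA1, at 357 TPM (a level scaled for gene length and library total), and highest in OVCAR3, at 7588 TPM. EPCAM was at 12.6, 14.8 and 14.5 TPM in the PEA1 libraries, while the lowest value among the other 30 libraries was 454 TPM. Markers of other tissues were low: the line sums ran from 1.95 to 53.8 TPM for 4 leukocyte genes, from 0.0683 to 7.37 TPM for 3 endothelial genes, from 2.69 to 64.4 TPM for 3 mesothelial genes, from 0.824 to 94.97 TPM for 4 fibroblast genes (highest in PEA1) and from 0.617 to 10.4 TPM for 4 granulosa and sex cord genes. CD3E, LST1, VWF, DCN, INHA and NR5A1 stayed under 1 TPM in every line.

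One library stood apart in a way that touched several of the factors. Replicate 1 of OVCAR4 ResA held RNA of genes that the other 2 libraries of that line lacked. Of 33 genes at 20 TPM or more in every PEO4 library and under 0.1 TPM in the 2 sister libraries, 28 reached 1 TPM in replicate 1, at a median of 4.17% of their PEO4 level. With PEO1 as the source, 34 of 42 genes reached 1 TPM, at a median of 3.89%, and with PEO6 23 of 42, at 2.59%. OVCAR3 ResB gave 1.56% and PEA1 1.185%, and the other source lines scored gave less. The source was thus not resolved to 1 line. In the other 32 libraries the highest such median, for any source line with at least 5 such genes, was 0.64%. Some lines of the same family had fewer such genes and were not scored, so mixing between them was not examined. Leaving out replicate 1 from both OVCAR4 ResA and OVCAR4 raised the share of all genes called between them from 11.1% to 39.6%. Between OVCAR4 ResB and OVCAR4 ResA, leaving it out from both lowered the share from 31.8% to 27.9%. The replicate 1 libraries of a pair were left out together, and the part of each was not tested. The factors whose call changed in OVCAR4 ResA are therefore also given without replicate 1.

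**Figure D1:**
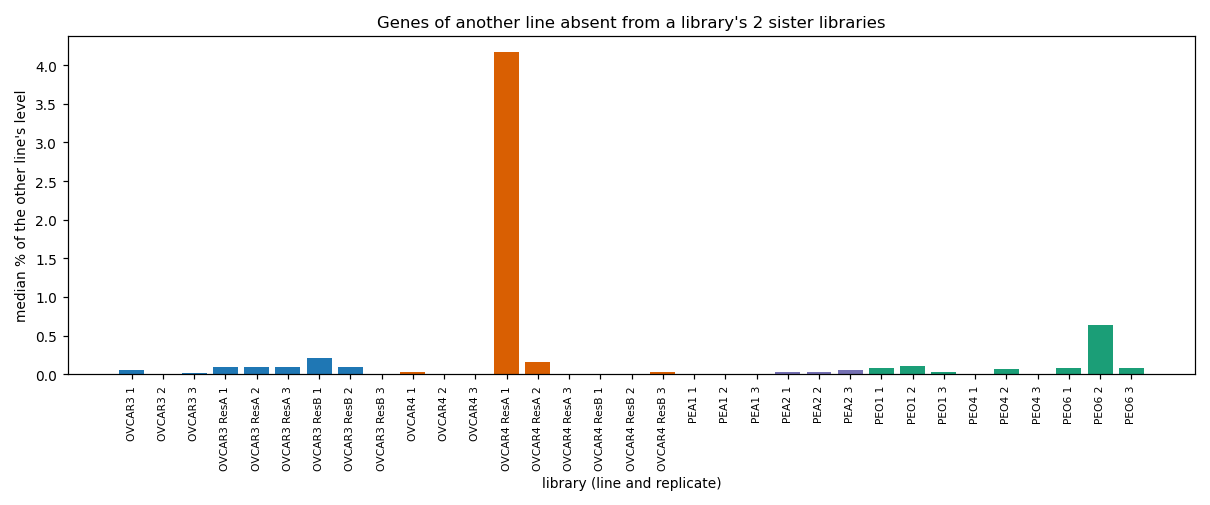
Share of another line's level, in percent on the y axis, at which each library (x axis, line and replicate number, coloured by family) held genes that its 2 sister libraries lacked, as the median over those genes for the source line with the highest median. Only source lines with at least 5 such genes were scored. OVCAR4 ResA replicate 1 stands at 4.17%, and no other library is above 0.64%.

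For 6 of the 9 genes (PAX8, PAX2, WT1, MECOM, EMX2 and MEIS1) the 250 bases before an annotated transcription start were at hand from RefSeq, on GRCh38.p14, with 1 to 4 starts per gene. The windows of EMX2, WT1 and PAX8 are shown for the features given next, and no expression result below rests on their sequence. The EMX2 window and the window before the first WT1 start each lie inside the span of an antisense transcript that followed its partner across the lines, and PAX8 was the factor found at 10 TPM or more in all 11 lines. Capitals mark matches on either strand. The motifs searched were the CCAAT box, the GC box as GGGCGG, the TATA box as TATAAA, and TAATTA as a core bound by many homeodomain proteins.
EMX2, chr10:117542496-117542745, plus strand: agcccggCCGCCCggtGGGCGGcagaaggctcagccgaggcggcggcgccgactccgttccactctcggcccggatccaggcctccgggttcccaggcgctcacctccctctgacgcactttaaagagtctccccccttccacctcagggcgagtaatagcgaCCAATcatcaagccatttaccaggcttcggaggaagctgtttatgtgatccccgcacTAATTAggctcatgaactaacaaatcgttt
WT1, first start, chr11:32435540-32435789, minus strand: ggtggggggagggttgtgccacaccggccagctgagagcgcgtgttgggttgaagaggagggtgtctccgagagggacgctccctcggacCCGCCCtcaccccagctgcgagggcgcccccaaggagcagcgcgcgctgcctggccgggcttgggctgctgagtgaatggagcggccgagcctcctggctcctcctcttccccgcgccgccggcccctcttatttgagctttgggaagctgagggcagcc
PAX8, chr2:113278922-113279171, minus strand: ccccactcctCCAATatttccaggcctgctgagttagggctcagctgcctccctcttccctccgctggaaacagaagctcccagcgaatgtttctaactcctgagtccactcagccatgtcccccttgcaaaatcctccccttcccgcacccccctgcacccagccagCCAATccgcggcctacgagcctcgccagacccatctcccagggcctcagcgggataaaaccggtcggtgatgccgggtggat

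The EMX2 window held 2 GGGCGG matches, 1 CCAAT and 1 TAATTA, with a G+C content of 60.4% and a ratio of observed to expected CpG of 0.898. The WT1 window held 1 GGGCGG match at 70.4% G+C and a CpG ratio of 0.616. The PAX8 window held 2 CCAAT matches at 61.6% G+C and a CpG ratio of 0.519. Over 35116 promoter windows of the same length, 32.0% held CCAAT, 42.6% GGGCGG, 10.7% TATAAA and 4.35% TAATTA, the median G+C was 58% and the median CpG ratio was 0.558. These matches describe the letters only.

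The lines differed in which of the factors they expressed. PAX8 and MEIS1 reached a mean of 1 TPM in all 11 lines, WT1 and MECOM in 9, SOX17 and EMX2 in 8, LHX1 in 7, FOXJ1 in 3 (the OVCAR3 family) and PAX2 in 0. The 9 lines for WT1 include OVCAR4 ResA, whose mean was 0.496 TPM without replicate 1. The OVCAR3 family had the same 8 of the 9, all except PAX2, at 1 TPM or more in each of its 3 lines. OVCAR4 ResB and PEO4 had 4, the fewest. The factors summed to 615 ± 84.4 TPM (SD, n = 3) in OVCAR3, the highest, and to 121 ± 21.8 TPM (SD, n = 3) in PEA2, the lowest. The most abundant factor was PAX8 or EMX2 in the OVCAR3 family, SOX17 in all 3 OVCAR4 lines, PAX8 in PEA1 and PEA2, WT1 in PEO1, and MEIS1 in PEO4 and PEO6. When the 11 lines were ranked by mean TPM for each factor, the libraries of neighbouring lines overlapped in 5 (SOX17) to 9 (PAX2) of the 10 steps. The order of overlapping neighbours is therefore uncertain, and overlap was not itself a test of difference. Steps without overlap included the drop in WT1 from OVCAR3, the fourth in rank, to OVCAR3 ResB, and the drops in SOX17 from PEO6 to PEA1 and from PEA1 to PEO1 and PEO4. In these bulk samples, fewer cells expressing a factor and less of its RNA per cell cannot be told apart.

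**Figure D2:**
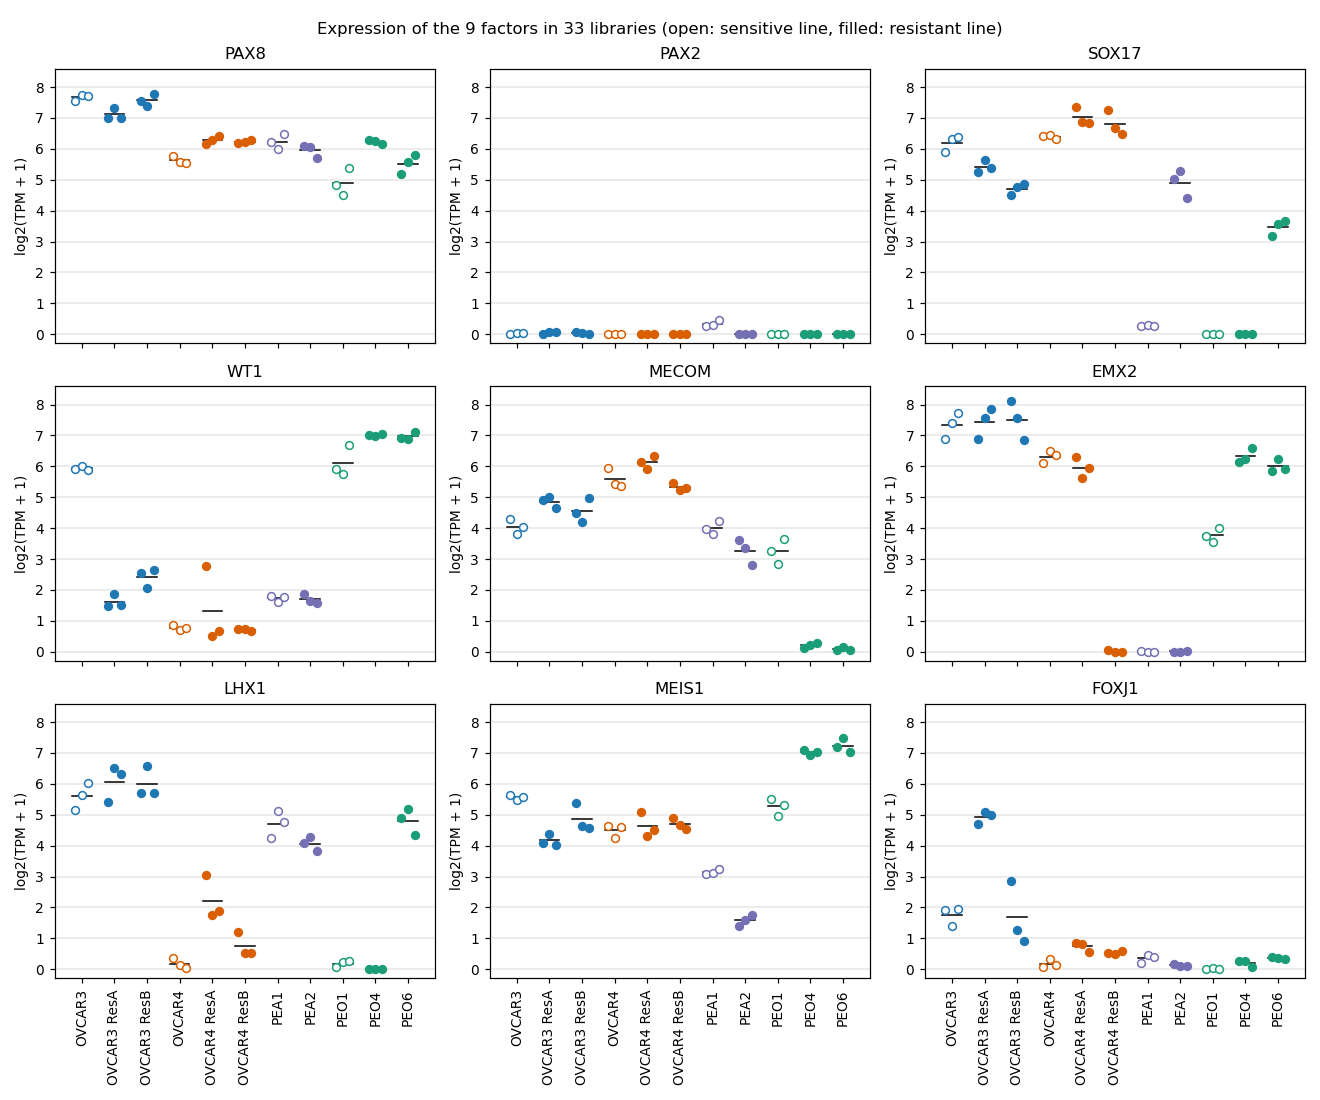
Level of each factor on a log2(TPM + 1) scale (y axis) in the 3 libraries of each of the 11 lines (x axis). Open points are sensitive lines, filled points resistant lines, colours the 4 families and bars the line means. PAX8 is high in every line, whereas SOX17, MECOM, EMX2 and LHX1 each fall to near 0 in some lines and PAX2 is near 0 in all.

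Within each family, DESeq2 was then run on every resistant line and its sensitive counterpart over all genes, with the replicate number as a block, and a gene was called at an adjusted p under 0.05. In OVCAR3 ResA, 7 of the 9 factors were called, with 3 higher (MECOM, LHX1, FOXJ1) and 4 lower (PAX8, SOX17, WT1, MEIS1), where 44.9% of all genes tested were called (22.0% higher and 22.9% lower). In OVCAR3 ResB, 2 were called, both lower (SOX17 and WT1), against 7.14% of all genes (3.84% higher and 3.29% lower). OVCAR4 ResA had 1 call, LHX1 higher, against 11.1% of all genes (6.21% higher and 4.85% lower), and without replicate 1 it had 3 (LHX1 higher, EMX2 and MEIS1 lower), against 39.6% of all genes. OVCAR4 ResB had 1 call, EMX2 lower, against 17.3% (8.8% higher and 8.5% lower). In PEA2, 4 were called, with SOX17 higher and PAX2, MECOM and MEIS1 lower, against 44.5% of all genes (22.0% higher and 22.5% lower). In PEO4, 6 were called, with PAX8, WT1, EMX2 and MEIS1 higher and MECOM and LHX1 lower, against 33.3% (16.6% higher and 16.7% lower). In PEO6, 8 were called, all higher except MECOM, against 39.2% (19.9% higher and 19.2% lower).

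Over the 7 pairs there were 29 calls (16 higher and 13 lower) among 56 combinations of factor and pair with an adjusted p, beside 28.8% of all genes tested over the same pairs (14.5% higher and 14.3% lower). Pairs of the same family share their sensitive libraries, so these combinations are not independent. With genes at the count floor taken at their bound or ratio, the median absolute log2 fold change of the factors tested was 1.72 in PEO4 and 3.76 in PEO6, where that of all genes tested was 0.51 and 0.70. In OVCAR3 ResB and OVCAR4 ResA it was 0.38 and 0.19, where that of all genes was 0.40 and 0.49. None of the 9 was called in the same direction in all 4 families. Of the 8 factors called in at least 2 pairs, 7 were called in both directions, FOXJ1 being the one called only higher. Among all 9952 genes called in at least 2 pairs, 61.4% were called in both directions.

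**Figure D3:**
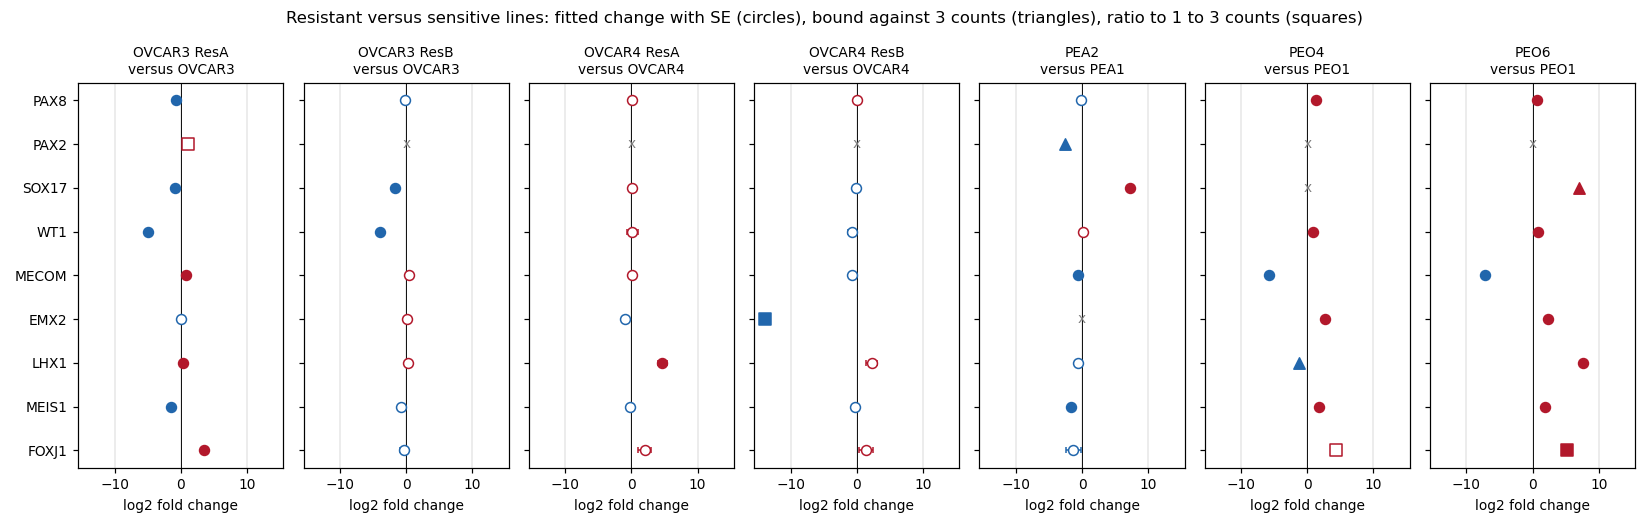
Log2 fold change (x axis) of each factor (y axis) in the 7 resistant lines against their sensitive counterparts, red for higher and blue for lower, filled where the DESeq2 adjusted p was under 0.05. Circles are fitted values with their SE, triangles bounds against a floor of 3 counts per library, squares ratios to a group with 1 to 3 counts in all, and x marks a factor at or under the floor in both lines or without an adjusted p. OVCAR3 ResA, PEO4 and PEO6 hold most of the calls, and the 2 OVCAR4 panels hold 1 each.

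PAX8 and PAX2 are paired-box factors that share their role in the early duct. PAX8 (chr2:113215997-113278921) was the factor that varied least, from 30.1 ± 9.84 TPM (SD, n = 3) in PEO1 to 203 ± 14.3 TPM (SD, n = 3) in OVCAR3. In OVCAR3 it was at 187, 212 and 210 TPM, in OVCAR3 ResA at 127, 160 and 128 TPM, and in OVCAR3 ResB at 188, 167 and 217 TPM. The ResA libraries all lay under the OVCAR3 ones, and PAX8 fell by 0.66 on the log2 scale (SE 0.10, DESeq2 adjusted p 1.83e-10). In OVCAR3 ResB the groups overlapped, with a log2 difference of -0.18 (SE 0.31, DESeq2 adjusted p 0.896). PEO1 had 27.4, 21.9 and 41.0 TPM, PEO4 had 76.5, 75.9 and 70.1 TPM, and PEO6 had 35.7, 46.6 and 54.7 TPM. PAX8 was 1.38 higher on the log2 scale in PEO4 than in PEO1 (SE 0.18, DESeq2 adjusted p 8.76e-13). The rise in PEO6 was smaller, at 0.61 (SE 0.23, DESeq2 adjusted p 0.0206), and PEO1 and PEO6 overlapped. That call was lost without the replicate block (adjusted p 0.0531) and without replicate 1 (0.0989) or replicate 2 (0.294).

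In the OVCAR4 family the scale decided how PAX8 looked. It was at 53.9, 46.6 and 46.1 TPM in OVCAR4, at 69.95, 76.5 and 85.03 TPM in ResA and at 71.8, 74.1 and 77.7 TPM in ResB, so both resistant lines lay above the parent with no overlap in TPM. On DESeq2-normalised counts the groups overlapped, and the log2 differences were 0.14 (SE 0.29, DESeq2 adjusted p 0.831) in ResA and 0.06 (SE 0.31, DESeq2 adjusted p 0.935) in ResB. On the TPM scale the median of all genes lay 0.44 and 0.47 above 0 on the log2 scale in these 2 pairs, and PAX8 exceeded that median by 0.21 and 0.13. Limma on log2(TPM + 1) did not call it either (adjusted p 0.251 and 0.263). With all replicates, MEIS1 in both OVCAR4 pairs and SOX17 in ResB had opposite signs on the 2 scales, with no call on either.

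PAX2 (chr10:100735396-100829944) was near absence everywhere. Its highest values were 0.205, 0.219 and 0.377 TPM in PEA1, from 16, 17 and 21 counts. In 9 of the 11 lines no library exceeded 3 counts, and in 5 lines (OVCAR4, OVCAR4 ResA, PEA2, PEO1 and PEO4) all 3 libraries held 0. PEA2 was at least 6.17-fold lower than PEA1 (DESeq2 adjusted p 0.000212), and 5 of the 7 pairs had no adjusted p for PAX2. PEA1 was also the line with little EPCAM, and whether the difference in PAX2 has to do with that was not tested.

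SOX17, an SRY-box factor known from endoderm and endothelium and from the tubal secretory lineage, was either abundant or missing. It lies on chromosome 8 at 54457935 to 54460892. In the OVCAR3 family it stepped down, from 58.5, 79.0 and 81.9 TPM in OVCAR3 to 37.3, 49.4 and 40.4 TPM in ResA and 21.6, 26.2 and 27.9 TPM in ResB, with no overlap between either resistant line and the parent. The log2 fold change was -0.93 (SE 0.12, DESeq2 adjusted p 9.01e-14) in ResA and -1.64 (SE 0.33, DESeq2 adjusted p 3.86e-05) in ResB. The direct comparison of ResB with ResA gave -0.72 (SE 0.34, DESeq2 adjusted p 0.16).

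PEA1 held 0.205, 0.227 and 0.192 TPM of SOX17, from 6 to 10 counts, and PEA2 held 31.4, 37.6 and 20.3 TPM. The rise was 7.25 on the log2 scale (SE 0.39, DESeq2 adjusted p 7.01e-75). EPCAM rose beside it between these lines, from the 12.6 to 14.8 TPM given above to 542, 614 and 569 TPM. Markers of other cell types changed between these lines as well, some up and some down. The summed endothelial level went from a mean of 0.0683 TPM in PEA1 to 7.37 TPM in PEA2 over 3 genes, of which CDH5, an endothelial cadherin, went from 0 counts to 7.02 TPM and VWF stayed under 1 TPM. The leukocyte sum went from 18.9 to 53.8 TPM over 4 genes, of which PTPRC, the leukocyte surface protein CD45, went from 0 counts to 3.30 TPM and CD3E and LST1 stayed under 1 TPM. Other sums fell from PEA1 to PEA2, the fibroblast one from 94.97 to 0.892 TPM over 4 genes. The granulosa and sex cord sum fell from 10.4 to 0.758 TPM over 4 genes. The mesothelial sums of the 2 lines overlapped. The part of these genes in the SOX17 result was not tested. PEO1 and PEO4 held 0 counts of SOX17 in all 6 libraries, and PEO6 held 8.04, 10.8 and 11.7 TPM, at least 127-fold more than PEO1 (DESeq2 adjusted p 7.29e-18). OVCAR4 held 84.6, 86.2 and 78.0 TPM, and overlapped both its resistant lines in normalised counts. OVCAR4 ResA had 164 TPM in replicate 1 and 115 and 113 TPM in the others, and the log2 difference from OVCAR4 was 0.11 with replicate 1 and -0.28 without it, uncalled both ways. In OVCAR4 ResB the log2 difference from OVCAR4 was -0.15 with all replicates (SE 0.40, DESeq2 adjusted p 0.855). Without replicate 1 SOX17 was called lower there, at -0.63 (SE 0.16, DESeq2 adjusted p 0.000273). The share of all genes called in that setting is not given here.

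WT1 (chr11:32387775-32435539), a zinc finger factor, split the lines into 4 with high levels and 7 with low levels. It was at 58.9, 63.6 and 58.4 TPM in OVCAR3, at 1.79, 2.62 and 1.86 TPM in OVCAR3 ResA and at 4.83, 3.17 and 5.21 TPM in OVCAR3 ResB. Both resistant lines were thus far under the parent. WT1 fell by 4.97 on the log2 scale in ResA (SE 0.15, DESeq2 adjusted p 1.23e-237) and by 3.90 in ResB (SE 0.33, DESeq2 adjusted p 4.48e-29). ResA and ResB did not overlap each other either, but their difference of 1.07 was not called (SE 0.45, DESeq2 adjusted p 0.0994).

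In the PEO family WT1 was high throughout, at 59.4, 52.5 and 102 TPM in PEO1, 128, 125 and 131 TPM in PEO4 and 119, 118 and 139 TPM in PEO6. It was higher than in PEO1 by 0.92 in PEO4 (SE 0.18, DESeq2 adjusted p 2.22e-06) and by 0.84 in PEO6 (SE 0.23, DESeq2 adjusted p 0.0014) on the log2 scale. Both calls were lost when all 33 libraries shared a fit, with adjusted p of 0.253 and 0.234, and that in PEO6 also without replicate 1 (0.0509) or replicate 2 (0.0663). In PEA1 and PEA2 it stayed between 1.96 and 2.66 TPM. The OVCAR4 family lay under 1 TPM in every library except OVCAR4 ResA replicate 1, which had 5.91 TPM where the other 2 had 0.416 and 0.576 TPM. CRIP1, a gene that followed WT1 across lines, was at 35.1 TPM in that library and at 2.33 and 1.84 TPM in its sisters.

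MECOM (chr3:169083507-169663712), which encodes the zinc finger factors EVI1 and MDS1-EVI1, was highest in the OVCAR4 family and nearly lost in the resistant PEO lines. PEO1 had 8.67, 6.21 and 11.47 TPM. PEO4 had 0.0942, 0.168 and 0.215 TPM, from 7 to 15 counts, and PEO6 had 0.0333, 0.124 and 0.0486 TPM, from 3 to 11 counts. MECOM fell by 5.72 in PEO4 (SE 0.34, DESeq2 adjusted p 3.02e-62) and by 7.14 in PEO6 (SE 0.49, DESeq2 adjusted p 2.11e-45) on the log2 scale, and PEO4 and PEO6 overlapped each other.

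The other families differed in direction, and no change in them was as large. OVCAR3 had 18.6, 13.1 and 15.3 TPM of MECOM and OVCAR3 ResA 29.1, 31.0 and 24.1 TPM, a rise of 0.75 on the log2 scale (SE 0.13, DESeq2 adjusted p 4.79e-08). PEA1 had 14.6, 13.05 and 17.7 TPM and PEA2 11.3, 9.14 and 6.02 TPM. That log2 fold change of -0.67 (SE 0.27, DESeq2 adjusted p 0.0286) did not hold without replicate 1, 2 or 3, where the adjusted p was 0.107, 0.0796 and 0.218. OVCAR4 had 60.9, 42.5 and 40.4 TPM, OVCAR4 ResA 68.8, 59.4 and 80.4 TPM and OVCAR4 ResB 43.5, 36.4 and 38.0 TPM. ResB lay under OVCAR4 without overlap in normalised counts, though not in TPM, and its log2 difference of -0.76 was not called (SE 0.30, DESeq2 adjusted p 0.0592). It was called, again lower, without the replicate block (adjusted p 0.0108), without replicate 1 (1.09e-06) and when all 33 libraries shared a fit (0.00302). OVCAR4 ResA was not called against OVCAR4, with a log2 difference of 0.09 with replicate 1 (DESeq2 adjusted p 0.901) and 0.11 without it (0.707). Compared with ResA directly, ResB was lower by a log2 fold change of -0.845 (SE 0.13, DESeq2 adjusted p 4.79e-10), and of -0.97 without replicate 1 (DESeq2 adjusted p 4.35e-15).

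EMX2 (chr10:117542746-117549546), a homeobox factor of the duct and the forebrain, was among the most abundant factors in most lines of 3 families and at the count floor in the fourth. PEA1 and PEA2 held at most 1 count in any library. The OVCAR3 family held 115 to 279 TPM in its 9 libraries, with wide overlap between its lines. PEO1 was at 12.4, 10.7 and 15.2 TPM, PEO4 at 70.4, 74.5 and 95.2 TPM and PEO6 at 57.2, 73.9 and 59.0 TPM. EMX2 was thus higher than in PEO1 by 2.69 in PEO4 (SE 0.18, DESeq2 adjusted p 1.08e-50) and by 2.29 in PEO6 (SE 0.24, DESeq2 adjusted p 3.53e-20) on the log2 scale.

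OVCAR4 held 67.4, 88.8 and 80.9 TPM of EMX2 and OVCAR4 ResA 77.4, 47.8 and 60.6 TPM. With all replicates the log2 difference between them was -0.90 (SE 0.40, DESeq2 adjusted p 0.141). Without replicate 1 of both lines, EMX2 was called lower, at -1.41 (SE 0.20, DESeq2 adjusted p 3.74e-11). OVCAR4 ResA replicate 1 is the library that stood apart above, and its part in this change was not tested. OVCAR4 ResB had 1, 0 and 0 counts, in the range of PEA1 and PEA2, and the ratio of OVCAR4 to it was 15412, with a 95% exact counting interval from 2766 to 608797 that covers counting error only.

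LHX1 (chr17:36936785-36944612), a LIM-homeodomain factor, was high in OVCAR3, PEA1, PEA2 and PEO6 and close to 0 in OVCAR4, PEO1 and PEO4. OVCAR4 had 0.288, 0.104 and 0.0179 TPM, from 1 to 19 counts. OVCAR4 ResA had 7.25, 2.38 and 2.66 TPM, and OVCAR4 ResB 1.33, 0.442 and 0.450 TPM. Both resistant lines lay above the parent without overlap. The rise in ResA was 4.68 on the log2 scale (SE 0.66, DESeq2 adjusted p 2.04e-10) and 4.76 (SE 0.88, DESeq2 adjusted p 6.87e-07) without replicate 1, while the difference in ResB was 2.24 (SE 0.87, DESeq2 adjusted p 0.055).

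PEO1 had 2, 12 and 11 counts of LHX1, PEO4 had 0, 0 and 0, and PEO6 had 28.6, 35.0 and 19.1 TPM. The 2 resistant PEO lines therefore left PEO1 in opposite directions. PEO4 was at least 2.31-fold lower than PEO1 (DESeq2 adjusted p 0.0299, but 0.117 without replicate 1 and 0.18 without replicate 3), and PEO6 was 7.59 higher on the log2 scale (SE 0.45, DESeq2 adjusted p 3.01e-61). OVCAR3 had 34.2, 48.5 and 64.6 TPM and OVCAR3 ResA 41.6, 89.6 and 78.5 TPM. These groups overlapped, and the call there of 0.34 higher (SE 0.12, DESeq2 adjusted p 0.0159) depended on the replicate block, since the adjusted p without it was 0.528. PEA2, at 16.1, 18.4 and 13.04 TPM, was not called against PEA1, at 17.9, 33.9 and 26.1 TPM.

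MEIS1 (chr2:66435125-66573869) was present in all lines and ranged from 2.01 ± 0.380 TPM (SD, n = 3) in PEA2 to 151 ± 23.1 TPM (SD, n = 3) in PEO6. It was at 44.6, 30.5 and 38.9 TPM in PEO1, at 135, 121 and 131 TPM in PEO4 and at 146, 176 and 131 TPM in PEO6. Both resistant PEO lines were higher than PEO1, by 1.72 (SE 0.17, DESeq2 adjusted p 8.57e-23) and 1.85 (SE 0.22, DESeq2 adjusted p 3.02e-15) on the log2 scale. OVCAR3 had 48.4, 44.1 and 47.0 TPM, ResA 15.9, 19.98 and 15.3 TPM and ResB 40.3, 23.8 and 22.6 TPM. MEIS1 fell by 1.53 in ResA (SE 0.13, DESeq2 adjusted p 1.7e-31), and the difference in ResB was -0.72 (SE 0.35, DESeq2 adjusted p 0.282). PEA1 had 7.46, 7.57 and 8.38 TPM and PEA2 1.65, 1.99 and 2.41 TPM, a log2 fold change of -1.72 (SE 0.31, DESeq2 adjusted p 1.85e-07). The OVCAR4 family held 17.996 to 33.4 TPM with no call. Without replicate 1, MEIS1 in OVCAR4 ResA was called lower, at -0.55 (SE 0.22, DESeq2 adjusted p 0.0344).

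FOXJ1 (chr17:76136333-76141245) was an OVCAR3 gene in these lines, and mainly an OVCAR3 ResA gene. It was at 2.78, 1.64 and 2.83 TPM in OVCAR3, at 24.8, 33.3 and 30.6 TPM in OVCAR3 ResA and at 6.32, 1.41 and 0.898 TPM in OVCAR3 ResB. No library of another family reached 0.8 TPM, and in OVCAR4 ResA the log2 difference from OVCAR4 was 1.98 with replicate 1 and 1.23 without it (DESeq2 adjusted p 0.226 and 0.439). ResA lay above both other lines, with a rise of 3.47 on the log2 scale over OVCAR3 (SE 0.19, DESeq2 adjusted p 1.26e-69). ResB overlapped the parent, and its log2 fold change from ResA was -3.86 (SE 0.54, DESeq2 adjusted p 6.36e-11). PEO6, at 0.256 to 0.312 TPM, was called higher than PEO1, which had 1 count in its 3 libraries. The ratio was 37.3 with a 95% exact counting interval from 6.34 to 1507 (DESeq2 adjusted p 0.00904), and the call did not survive the loss of any single replicate (0.0896 to 0.152).

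FOXJ1 is known for the genes it acts on, so 27 genes known from ciliated cells, listed with earlier results of these data known, were examined in the OVCAR3 family. In OVCAR3 ResA, 24 of them had an adjusted p and 13 were called, with 10 higher and 3 lower, where 22.0% of all genes tested were called higher and 22.9% lower. Their median log2 fold change was 0.52, beside -0.02 for all genes tested. PIFO, which encodes a protein of the ciliary base, went from 1.61, 1.02 and 0.788 TPM to 11.1, 8.81 and 9.27 TPM and had a log2 fold change of 2.997 (SE 0.26, DESeq2 adjusted p 2.66e-29). CAPS, CCDC78 and RFX3 were not called there (DESeq2 adjusted p 0.15, 0.292 and 0.117). MCIDAS, the regulator that acts before FOXJ1 in multiciliated cells, was called lower, at -1.02 (SE 0.37, DESeq2 adjusted p 0.0158). TPPP3 and DNAH5 were the other 2 called lower. These 3 were singled out after their values were seen.

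In OVCAR3 ResB, 0 of 21 tested ciliated cell genes were called against OVCAR3 by DESeq2, where only 7.14% of all genes tested were. In that fit 2 of the list had an unadjusted p under 0.05, and edgeR called 0 of 18. DESeq2 called 2 without the replicate block, 1 after a filter on counts and 4 of 22 in the fit of all 33 libraries. The shares of all genes called in those other fits are not given here. Against ResA, 3 of 23 were called, where 12.6% of all genes were. PIFO was lower in ResB, at -3.45 on the log2 scale (SE 0.50, DESeq2 adjusted p 3.72e-10). Within OVCAR3 ResB, replicate 1 had the highest FOXJ1, and C1orf192, also known as CFAP126, was at 2.92 TPM in it and at 0.424 and 0.395 TPM in the other 2. In the OVCAR4 family 1 of 14 ciliated cell genes tested was called in ResA and 2 of 14 in ResB, all lower. The shares of all genes called there were 11.1% and 17.3%. Without replicate 1 the count in ResA was 1 of 13, also lower, where 39.6% of all genes were called. The list gave 10 of 19 in PEA2 (6 higher and 4 lower), where 44.5% of all genes were called. It gave 4 of 20 in PEO4 (3 higher and 1 lower) against 33.3%, and 9 of 21 in PEO6 (8 higher and 1 lower) against 39.2%.

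**Figure D4:**
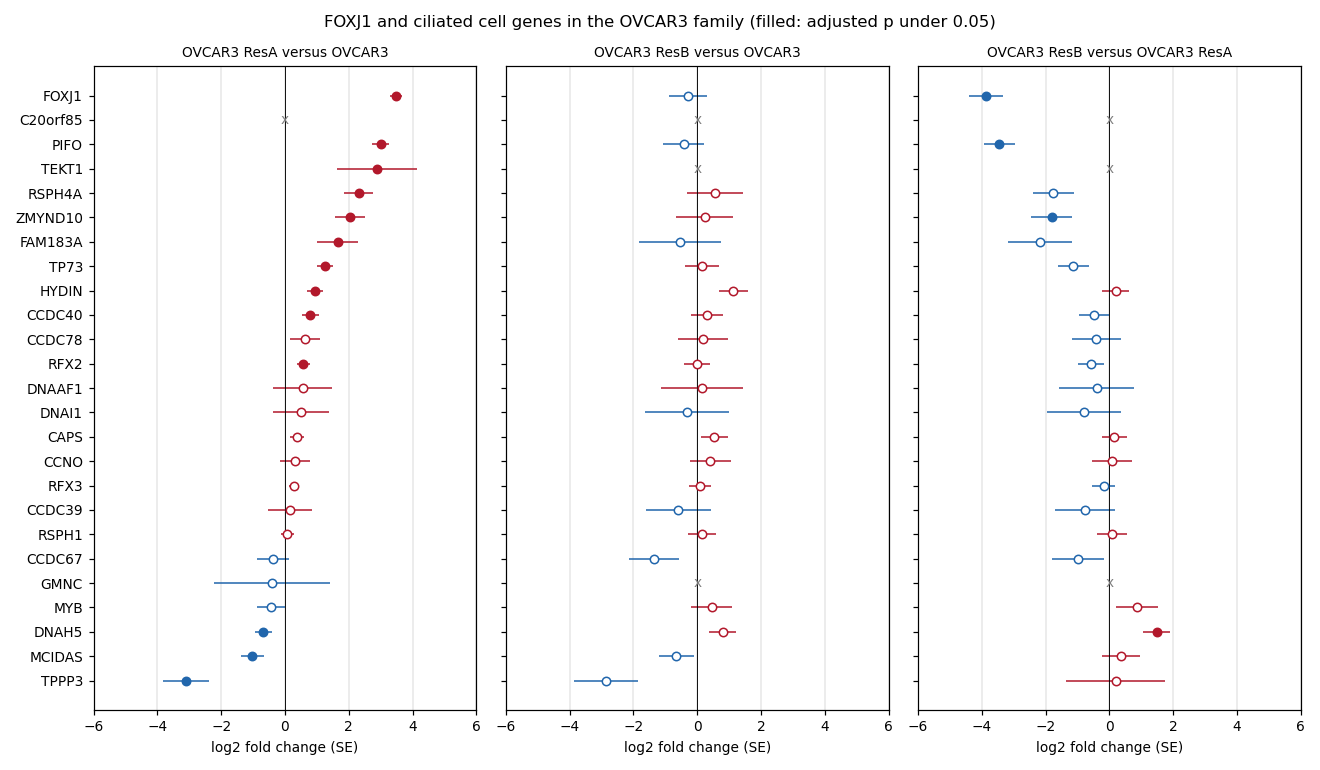
Log2 fold change with SE (x axis) of FOXJ1 and of the ciliated cell genes tested in OVCAR3 ResA (y axis), in the 3 comparisons of the OVCAR3 family, filled where the DESeq2 adjusted p was under 0.05. An x marks a gene without an adjusted p, or with a group at 3 counts or fewer in all. In ResA against OVCAR3, FOXJ1 and 9 of the genes shown have filled red points and 3 have filled blue ones. No point is filled in ResB against OVCAR3, where 7.14% of all genes tested were called, beside 44.9% in ResA.

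Where both resistant lines of a family were compared directly, 1 factor differed in OVCAR3 (FOXJ1), 3 in OVCAR4 (MECOM, EMX2 and LHX1, each lower in ResB) and 3 in PEO (PAX8 lower, SOX17 and LHX1 higher in PEO6 than in PEO4). The share of all genes called was 12.6% in OVCAR3 (6.98% higher and 5.59% lower), 31.8% in OVCAR4 (15.8% and 16.0%) and 18.2% in PEO (9.86% and 8.33%). PAX8 had a log2 fold change of -0.77 from PEO4 to PEO6 (SE 0.28, DESeq2 adjusted p 0.0351), which was not called by edgeR's quasi-likelihood test (adjusted p 0.1) or limma (0.154 and 0.16 with 1 and 0.1 added to TPM), nor without replicate 1 (0.324) or replicate 2 (0.502). The call of SOX17 there was lost without replicate 1 (0.0707) or replicate 2 (0.128). Without replicate 1, MECOM, EMX2 and LHX1 were still called lower in OVCAR4 ResB than in ResA (DESeq2 adjusted p 4.35e-15, 0.00301 and 4.37e-06), and SOX17 was called lower as well, at -0.35 (DESeq2 adjusted p 0.0101), where 27.9% of all genes were called. PEO4 and PEO6 shared their high WT1, EMX2 and MEIS1 and their near loss of MECOM, and differed in SOX17 and LHX1, each at 0 counts in every PEO4 library. OVCAR4 ResA and ResB both held SOX17 at 88.7 TPM or more and PAX8 at 69.95 TPM or more, and differed in EMX2.

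Several of the factors had a noncoding neighbour whose level could be set beside theirs. EMX2OS is transcribed across the EMX2 start and shares 2323 bases of its span with EMX2, and WT1-AS starts inside WT1 and shares 22 bases. LHX1-DT, listed as LOC102723471, lies 123 bases from LHX1. PAX8-AS1 lies wholly within PAX8 and stayed under 1 TPM. Whether reads were counted by strand is not given in the sources used here, so where spans overlap, reads from a gene and its antisense partner cannot be told apart.

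EMX2OS was at 0 in all 6 PEA libraries and at no more than 0.0215 TPM in OVCAR4 ResB, the lines in which EMX2 held at most 1 count per library. In the PEO family it was at 2.09, 1.25 and 1.45 TPM in PEO1, at 48.2, 39.4 and 24.9 TPM in PEO4 and at 25.2, 32.2 and 38.4 TPM in PEO6. It was higher than in PEO1 by 4.57 in PEO4 (SE 0.18, DESeq2 adjusted p 1.47e-132) on the log2 scale, where EMX2 was higher by 2.69. In OVCAR4 ResA it was called lower with all replicates, at -1.38 (SE 0.28, DESeq2 adjusted p 5.25e-05), and at -1.34 without replicate 1 (SE 0.19, DESeq2 adjusted p 1.31e-11), where EMX2 was called without replicate 1 but not with it. Pearson r between EMX2 and EMX2OS was 0.971 over the 11 line means of log2(TPM + 1), as a description, since the lines share origins and libraries.

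WT1-AS fell in OVCAR3 ResA, from 4.06, 5.70 and 6.46 TPM to 0.474, 0.275 and 0.466 TPM, with a log2 fold change of -3.87 (SE 0.36, DESeq2 adjusted p 4.19e-26), and in OVCAR3 ResB to 0.568, 0.782 and 1.07 TPM. It had an r of 0.996 with WT1 over the 11 lines, and no gene among 13185 compared was closer to WT1. LOC102723471 was the closest gene to LHX1, with an r of 0.953. It was at 0.256, 0 and 0.129 TPM in OVCAR4, at 6.24, 3.26 and 2.84 TPM in ResA and at 3.13, 1.51 and 1.497 TPM in ResB. It was called higher in both resistant lines, by 4.74 in ResA (SE 0.91, DESeq2 adjusted p 1.03e-05) and by 3.77 in ResB (SE 1.002, DESeq2 adjusted p 0.00219), so it passed the test in ResB where LHX1 itself did not. Without replicate 1 the rise in ResA was 4.92 (SE 1.27, DESeq2 adjusted p 0.000528). MEIS1-AS3, which lies before MEIS1, was at 2.19, 1.35 and 1.27 TPM in PEO4 and at 3.06, 4.22 and 3.41 TPM in PEO6, and at or under 0.208 TPM in every other library. Within OVCAR3 ResA, where MEIS1 fell, MEIS1-AS2 and MEIS1-AS3 were both called lower (DESeq2 adjusted p 0.0319 and 0.037).

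The protein-coding genes on each side of the factors were then set beside them. Where a factor was called in 1 of the 7 pairs and its flanking gene was tested, the flank was called in the same direction in 15 of 57 combinations, in the opposite direction in 9, and not called in 33. These are 26.3% and 15.8% of the combinations, beside 18.1% and 17.9% of all genes called in those directions when the same pairs are weighted by their number of combinations. The combinations share libraries and factors, and the difference was not tested. RNF157, an E3 ubiquitin ligase gene 1.23 kb from FOXJ1, was at 0.366, 0.265 and 0.340 TPM in OVCAR3, at 3.51, 3.11 and 4.26 TPM in ResA and at 0.179, 0.215 and 0.288 TPM in ResB. It rose by 3.34 in ResA (SE 0.28, DESeq2 adjusted p 1.17e-30), close to the 3.47 of FOXJ1. Its level did not go with that of FOXJ1 across families, since it was highest in PEA1, at up to 23.6 TPM, with FOXJ1 under 0.4 TPM. Within the other families RNF157 was called lower in PEA2 (-2.97) and higher in OVCAR4 ResB (1.24) and PEO4 (2.70) on the log2 scale, pairs in which FOXJ1 had the same sign with no call. In PEO6, where FOXJ1 was called, RNF157 was not (DESeq2 adjusted p 0.941).

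LOC100129098, 4.70 kb from SOX17, was listed at 0 in every PEO1 and PEO4 library and at 2.37, 4.03 and 2.01 TPM in PEO6. It rose with SOX17 in PEA2 as well, from at most 0.111 TPM to 1.43, 2.03 and 2.004 TPM. RAB11FIP2, 455 kb from EMX2, was at 27.8, 19.9 and 17.4 TPM in OVCAR4 and at 8.41, 10.6 and 10.6 TPM in OVCAR4 ResB, a log2 fold change of -1.68 (SE 0.30, DESeq2 adjusted p 7.52e-07). PDZD8, on the other side of EMX2, was not called there (DESeq2 adjusted p 0.516). ACTRT3, 103 kb from MECOM, was at 9.85, 7.53 and 7.22 TPM in PEO1, at 2.19, 2.21 and 1.69 TPM in PEO4 and at 2.18, 1.58 and 1.75 TPM in PEO6, and was called lower in both. Gene copy number was not measured in these files.

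**Figure D5:**
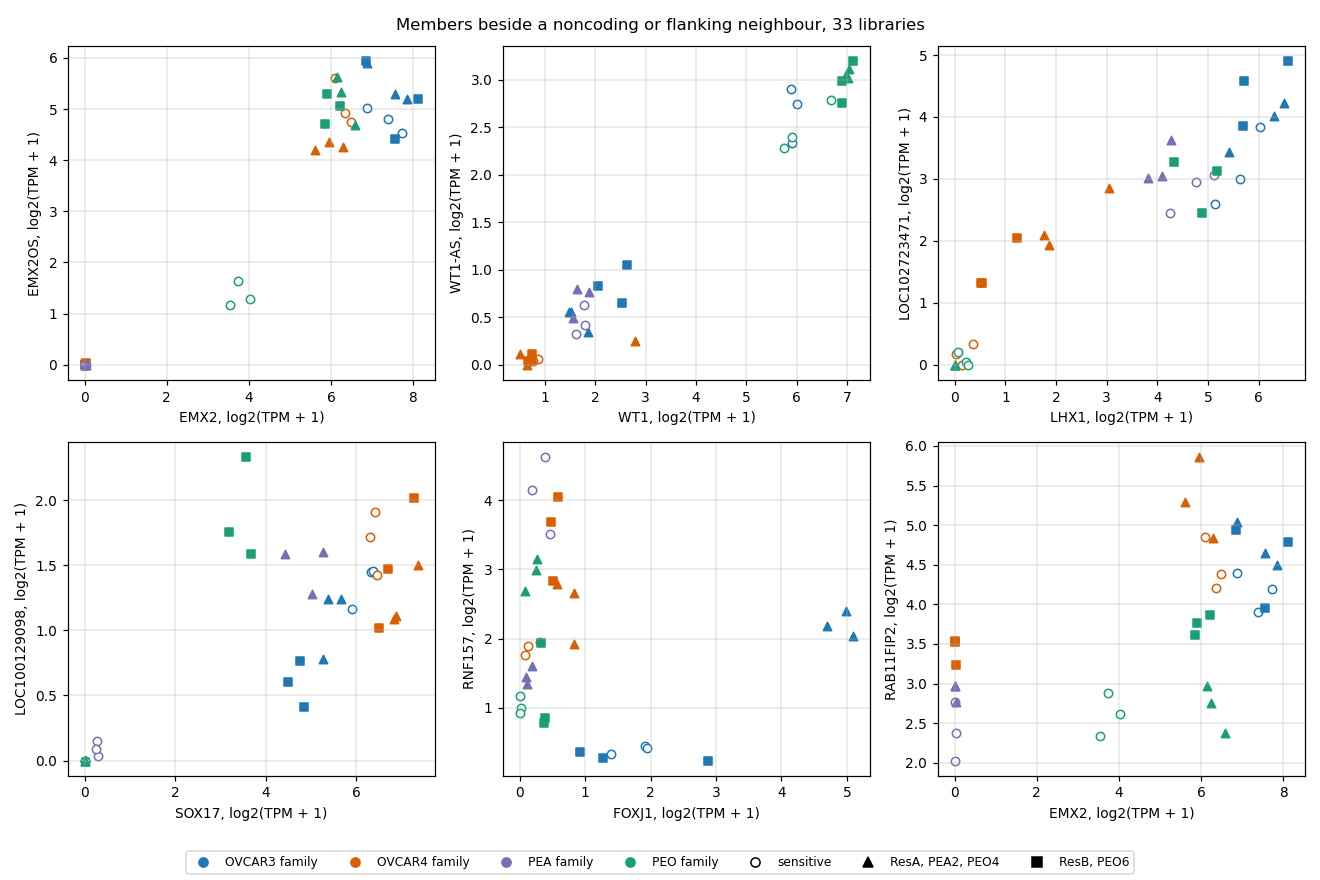
Level of a neighbouring transcript (y axis) against the factor beside it (x axis), both as log2(TPM + 1), in 33 libraries, coloured by family, with open points for sensitive lines. EMX2OS, WT1-AS, LOC102723471 and LOC100129098 are low in the lines where EMX2, WT1, LHX1 and SOX17 are low, whereas RNF157 is high in PEA1 libraries that have little FOXJ1.

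Among 27 other genes of Mullerian and urogenital development, 13 of 22 tested were called in OVCAR3 ResA (4 higher and 9 lower), 7 of 19 in OVCAR3 ResB (5 and 2), 6 of 19 in OVCAR4 ResA (5 and 1), 12 of 19 in OVCAR4 ResB (5 and 7), 11 of 20 in PEA2 (4 and 7), 10 of 19 in PEO4 (4 and 6) and 12 of 19 in PEO6 (3 and 9). The shares of all genes called in these pairs were 44.9%, 7.14%, 11.1%, 17.3%, 44.5%, 33.3% and 39.2%, in the same order. Without replicate 1, 9 of 19 were called in OVCAR4 ResA (6 and 3), against 39.6% of all genes. WNT7A, the ligand that patterns the uterus and oviduct, was called in 6 pairs. It went from at most 0.206 TPM in OVCAR3 to 19.8, 22.7 and 12.3 TPM in ResA and 4.44, 8.24 and 20.1 TPM in ResB, and it fell in PEO4 and PEO6, with log2 fold changes of -3.71 and -5.29 (SE 0.31 and 0.51, DESeq2 adjusted p 4.01e-31 and 2.22e-23). SALL1, a zinc finger factor of the kidney, and GFRA1, the co-receptor for GDNF, were each called in 6 pairs, 3 higher and 3 lower for SALL1 and 2 higher and 4 lower for GFRA1.

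Of 30 paralogs and protein partners of the factors, 13 of 25 tested were called in OVCAR3 ResA (6 higher and 7 lower), 2 of 21 in OVCAR3 ResB (1 and 1), 2 of 20 in OVCAR4 ResA (both lower), 3 of 20 in OVCAR4 ResB (1 and 2), 10 of 22 in PEA2 (4 and 6), 12 of 22 in PEO4 (8 and 4) and 11 of 22 in PEO6 (5 and 6). Beside the shares of all genes just given, the counts in OVCAR3 ResB, OVCAR4 ResA, OVCAR4 ResB and PEA2 lay near the background. Those in OVCAR3 ResA, PEO4 and PEO6 lay above it, by amounts that were not tested. Without replicate 1, 7 of 19 were called in OVCAR4 ResA (2 and 5), also near the 39.6% of all genes. MEIS2, the paralog of MEIS1, fell where MEIS1 rose: the log2 fold change from PEO1 was -6.79 in PEO4 (SE 0.34, DESeq2 adjusted p 8.62e-87) and -6.09 in PEO6 (SE 0.33, DESeq2 adjusted p 2.76e-72). In OVCAR3 ResA and PEA2, where MEIS1 fell, MEIS2 rose by 0.55 (SE 0.14, DESeq2 adjusted p 0.000509) and 1.02 (SE 0.29, DESeq2 adjusted p 0.00123). PBX2, a partner of MEIS proteins, was higher in PEO4 and PEO6 and lower in both OVCAR4 lines. PAX6 was called in 4 pairs, lower each time. FOXJ2 was called higher in OVCAR3 ResA and PEA2 and lower in PEO4 and PEO6.

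Likeness across lines was measured as Pearson r over the 11 line means of log2(TPM + 1), as a description of lines that share origins. Besides the noncoding partners given above, the closest genes were DNAJC11 for PAX8 (r 0.980), TAF12 for SOX17 (0.941), CRIP1 for WT1 (0.945), TEAD2 for MECOM (0.931), LYPD6B for EMX2 (0.906), CD82 for LHX1 (0.941), PPP1R16A for MEIS1 (0.963) and C1orf192 for FOXJ1 (0.987). SNAR-B2, next for FOXJ1 (0.976), belongs to a family of near-identical copies and is uncertain. Among the 9 factors themselves, leaving out PAX2, r was highest between WT1 and MEIS1 (0.741) and lowest between WT1 and MECOM (-0.823). WT1 was high and MECOM lost in PEO4 and PEO6, and WT1 was under 1 TPM in the OVCAR4 lines with the most MECOM, apart from OVCAR4 ResA replicate 1.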

How the data were processed

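The authors processed mRNA reads through nf-core/rnaseq on GRCh38 and deposited, per gene and library, expected counts from salmon (not normalised, 88.4% of them whole) and TPM, scaled by the authors for gene length and library total. The strand setting is not given in the sources used here. Expected counts were rounded here and tested in R 4.3.3 with DESeq2 1.42.0 (Wald test, replicate number as a block as in the study's methods, default independent filtering, no filter before fitting, Benjamini-Hochberg over all genes, called under 0.05) on the 6 libraries of each of 10 comparisons. The script was tested on simulated data. Alternatives used edgeR 4.0.16 and limma 3.58.1. Where 3 libraries held 0 counts, a fold was taken against 3 counts per library.

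Replicate numbers were checked by correlating deviations of same-numbered libraries: OVCAR3 ResA with its parent (0.636, 0.218 and 0.426) and the 2 resistant OVCAR4 lines (0.63, 0.445 and 0.488) exceeded 0.1 for every number, and the other 8 comparisons did not.

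The 9 members and the gene lists were chosen with earlier results of these data known. Named genes were all members, their listed noncoding neighbours and flanking protein-coding genes, up to 4 genes per list (those called in the most pairs among genes reaching 5 TPM), and the 3 genes closest to each member across lines, not all of which are given. MECOM-AS1 was not analysed here. Replicates differed by more than counting noise (chi-square per degree of freedom 30.6 to 534). Positions and sequences are from RefSeq, GRCh38.p14, matched by symbol, synonym or gene ID. SOX17, LHX1 and FOXJ1 had no promoter entry in the table used. A gene that the naming rule covers is not reported here.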

Additional observations from a re-analysis of the deposited data

Results flagged for a closer look

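The resistant lines of a family differed from each other in 7 cases by the direct DESeq2 test. In OVCAR3 ResB against OVCAR3 ResA, FOXJ1 had a log2 fold change of -3.86 (DESeq2 adjusted p 6.36e-11). In OVCAR4 ResB against OVCAR4 ResA, MECOM had -0.845 and LHX1 -2.50 (DESeq2 adjusted p 4.79e-10 and 1.07e-15), and EMX2 was 8693 times lower as a ratio to 1 count (DESeq2 adjusted p 5.53e-20). In PEO6 against PEO4, PAX8 had -0.771 (DESeq2 adjusted p 0.0351), a call lost with edgeR, with limma and without replicate 1 or 2. SOX17 was at least 111-fold higher and LHX1 at least 459-fold higher (DESeq2 adjusted p 2.83e-16 and 1.34e-12), and the call of SOX17 was lost without replicate 1 (0.0707) or replicate 2 (0.128).

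Several factors were called in opposite directions in different families, and the difference between 2 such changes was tested in 1 DESeq2 fit of all 33 libraries. Only changes in which each line held more than 3 counts over its libraries are used, which leaves out EMX2, LHX1 and the change of SOX17 in PEO6. For each other factor the pair with the largest difference among those called in opposite directions is given, chosen after the values were seen. That choice itself favours a large difference, so the p-values below add no separate support to the calls. OVCAR3 ResA minus PEO4 gave -2.01 for PAX8 (DESeq2 adjusted p 7.77e-18) and -5.83 for WT1 (DESeq2 adjusted p 2.4e-13) on the log2 scale. In this fit the rise of WT1 in PEO4 was 0.85 and was not called (DESeq2 adjusted p 0.253). Most of the WT1 difference thus lay in its fall in OVCAR3 ResA. OVCAR3 ResB minus PEA2 gave -8.92 for SOX17 (DESeq2 adjusted p 2.51e-57). OVCAR3 ResA minus PEO6 gave 7.80 for MECOM (DESeq2 adjusted p 8.09e-63). PEA2 minus PEO6 gave -3.59 for MEIS1 (DESeq2 adjusted p 4e-23). PEA1, against which PEA2 was set, had little EPCAM, as described in the report, and its part in these differences was not tested.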

How the results depend on the processing

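Of the 36 calls made for the factors over the 10 comparisons, 0 changed direction in any of the 11 alternatives, 26 were kept wherever these gave a value, apart from limma on log2(TPM + 1) without a filter, and 8 in that one as well. Without that filter limma called 3, 0, 0, 0, 2, 2 and 1 factors in OVCAR3 ResA, OVCAR3 ResB, OVCAR4 ResA, OVCAR4 ResB, PEA2, PEO4 and PEO6, and 0, 1 and 0 between the resistant lines of OVCAR3, OVCAR4 and PEO. The cause was not tested. Limma with a filter called 2 in PEA2 at either pseudocount, and 1 in OVCAR3 ResB with 0.1 added. The count filter gave 2 in OVCAR4 ResB. With all 33 libraries in 1 fit the counts were 2 in OVCAR4 ResA, 3 in OVCAR4 ResB and 3 between OVCAR3 ResB and ResA. The fit with no replicate block gave 2 in OVCAR4 ResA, 2 in OVCAR4 ResB and 3 between OVCAR3 ResB and ResA, lost the calls of LHX1 in OVCAR3 ResA and PAX8 in PEO6, and added 5.

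Leaving out 1 replicate number gave 2 to 4 calls in OVCAR3 ResB, 1 to 3 in OVCAR4 ResA, 1 to 3 in OVCAR4 ResB, 5 to 7 in PEO6, 1 to 3 between OVCAR3 ResB and ResA and 1 to 3 between PEO6 and PEO4. The share of all genes called moved with the setting too, from 11.1% to 39.6% in OVCAR4 ResA without replicate 1. For most other settings that share is not given here, so these counts and those of the paragraph above have no background beside them. Among results called neither way, the sign differed from the main one in 35 cases. Factors under about 20 counts per library (PAX2, and LHX1, MECOM or FOXJ1 in some lines) are limited by depth.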
